A study of Mus musculus with 6 samples.

Results

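The liver plasma protein genes described here are Alb, Afp, Ttr, Apoa1, Apoa2, Apob, Ahsg, Fgb and Trf, together with Hnf4a, a transcription factor that drives many of them. They form a list of 10 genes, all 10 of which had a probe set of their own, among 19938 genes so measured. The list was chosen by name with the values of these arrays already known, and each gene was read from the brightest of its probe sets that carry 1 gene symbol. The difference between the groups below is therefore a description of these 10 genes and not a test of them. Each of the 10 genes had 1 such probe set, so no further probe set could be set beside it.

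RNA came from lung buds dissected from mouse embryos at E11.5, of mixed C57BL/6, 129X1 and 129S1 background. All 6 samples carried Shhcre, which makes Cre recombinase from the Sonic hedgehog locus, a gene of the lung epithelium. The 3 control samples carried Shhcre alone (genotype Shhcre). The 3 samples called DKO carried it with floxed alleles of the histone deacetylase genes Hdac1 and Hdac2 (genotype Shhcre:Hdac1fl/fl; Hdac2 fl/fl). The labels call the samples of a group biological replicates, but do not say whether 1 sample is 1 embryo or a pool, so the spread is between samples. Recombination was directed at Shh-expressing cells, whereas RNA of all cells of the bud was measured together. Fewer cells of a type and less RNA per cell cannot be told apart in such samples.

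Albumin and alpha-fetoprotein are secreted into plasma by hepatocytes, and before the liver matures alpha-fetoprotein and apolipoproteins are also made in quantity by the visceral endoderm of the yolk sac. Liver, lung, thyroid and pancreas all arise from the foregut endoderm, and the lung does not normally make plasma proteins in quantity. The liver genes are switched on by a shared set of factors, among them HNF4, FOXA and C/EBP proteins, which bind close to their start sites. Alb and Afp are neighbouring genes of 1 family, in which Afp is active in the fetus and is silenced after birth, while Alb remains active.

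The promoters of Alb and Afp are shown because these genes had the widest gaps between the group means of the 10, and that of Apoa1 because it is a liver gene whose groups overlapped. Each line gives the 150 bases before the RefSeq start, 5′ to 3′, on the + strand of build GRCm38.p6. Capitals mark matches to letters of FOXA (TGTTTAC and TGTTTGC) or C/EBP (TTGCNNAA) sites, on either strand. The lines cover chr5:90460720-90460869 for Alb, chr5:90490564-90490713 for Afp and chr9:46228480-46228629 for Apoa1.
Alb: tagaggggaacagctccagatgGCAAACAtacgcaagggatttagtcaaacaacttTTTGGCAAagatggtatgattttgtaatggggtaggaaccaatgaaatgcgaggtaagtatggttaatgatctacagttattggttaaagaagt
Afp: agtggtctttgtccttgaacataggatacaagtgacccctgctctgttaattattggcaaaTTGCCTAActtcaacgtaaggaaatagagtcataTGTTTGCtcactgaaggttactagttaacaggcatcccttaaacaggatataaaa
Apoa1: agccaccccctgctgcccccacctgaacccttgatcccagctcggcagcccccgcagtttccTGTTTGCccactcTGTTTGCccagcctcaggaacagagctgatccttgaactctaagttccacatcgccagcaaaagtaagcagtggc

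Promoters of 8 genes of the list were used from the reference table, with those on a single chromosome left out. The shares of all promoters below are over the whole table. The table holds 32851 promoters, which run from 250 bases before the start to 50 after it. The FOXA letters were found in 6 of the 8 genes (Alb, Afp, Apoa1, Apoa2, Apob and Ahsg), against 8.48% of all promoters. They began 128 bases before the start in Alb, 55 in Afp, and 88 and 75 in Apoa1. The C/EBP letters were found in 6 of the 8 (Alb, Afp, Apoa2, Apob, Ahsg and Fgb), against 10.8%, and began 94 bases before the start in Alb and 89 in Afp. The HNF4 letters CAAAGTCCA were found in 0 of the 8, against 0.475%. The simpler CCAAT letters were found in 5 of the 8 (37.4% of all promoters) and TATAAA in 3 of the 8 (13.6%). Apoa2 and Hnf4a had 2 promoters each in the table, and a gene was counted if either held the letters. A match describes letters and not a bound site.

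Albumin RNA was higher in all 3 DKO samples than in any control sample. The log2 expression of Alb, the gene of the main carrier protein of plasma, was 7.21, 7.52 and 7.27 in controls 1 to 3. In DKO 1 to 3 it was 8.15, 8.77 and 7.96. The groups did not overlap, the gap between the highest control and the lowest DKO value was 0.444 on the log2 scale, and DKO 2 was the high sample. The control mean was 7.33 ± 0.16 (SD, n = 3). The DKO mean was 8.29 ± 0.42 (SD, n = 3), which gives a log2 difference of 0.96 (SE 0.18) or 1.95-fold. Without DKO 2 the difference was 0.72.

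Afp, the gene of the fetal relative of albumin, had a smaller gap in the same direction. Its log2 expression was 7.23, 7.44 and 6.94 in controls 1 to 3. It was 7.92, 7.84 and 7.45 in DKO 1 to 3. The lowest DKO value lay 0.010 above the highest control value, so the groups only just failed to overlap, and DKO 3 stood level with control 2. The log2 difference was 0.53 (SE 0.14, n = 3 per group), or 1.45-fold, and it was 0.48 without DKO 2 and 0.40 without control 3.

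**Figure D1:**
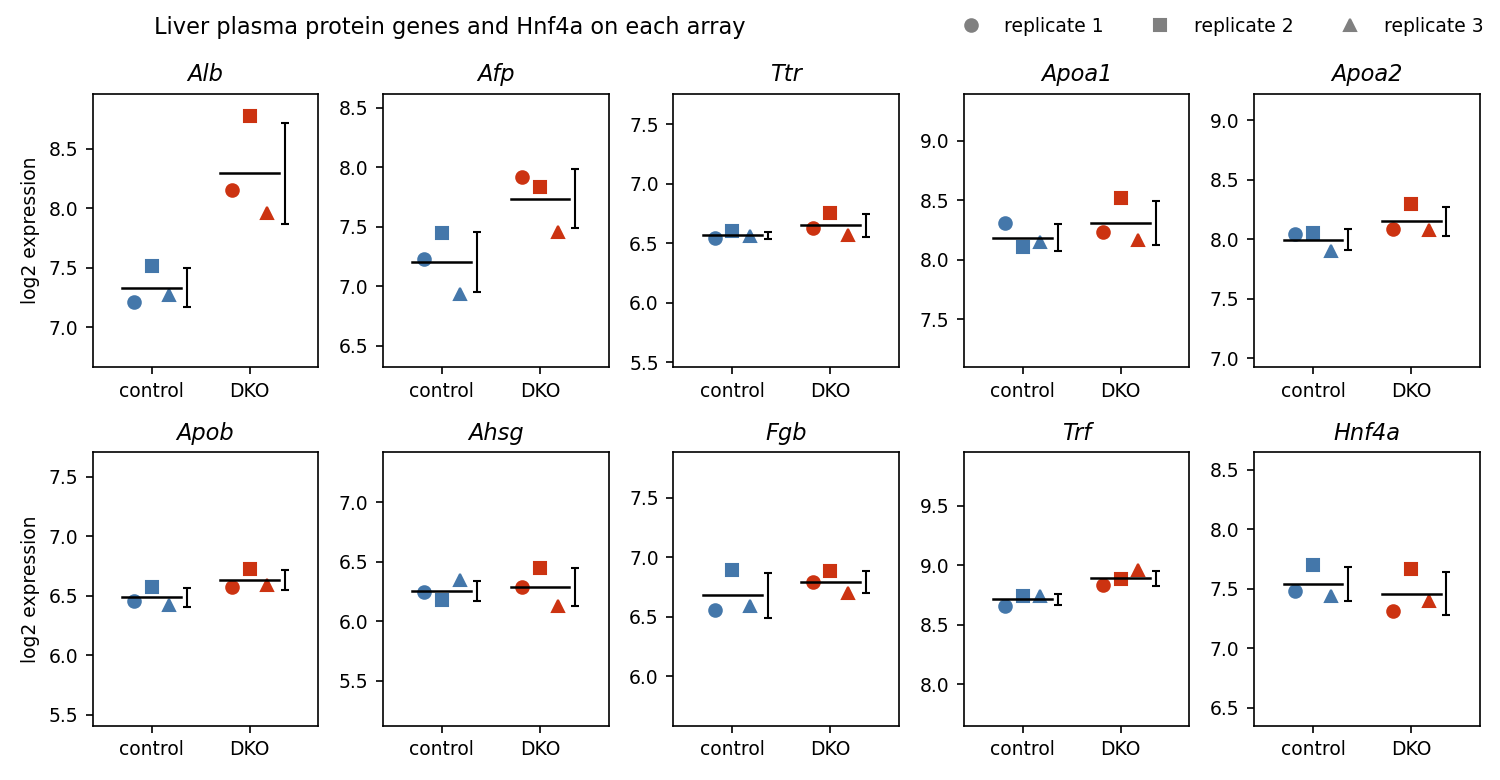
Log2 expression (vertical axes, each spanning the same range) of the 10 genes on the 3 control arrays (blue) and the 3 DKO arrays (red), with marker shape for the replicate number, a line for the group mean and a bar beside it for ±1 SD. Alb stands clear of the controls on all 3 DKO arrays, Afp by a narrow margin, and for the other 8 genes the group means differ by at most 0.18.

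Of the 10 genes, Alb passed the limma threshold (adjusted p under 0.05) and 0 passed downward. Over all genes 2.41% passed, 1.03% upward and 1.38% downward. Values of all 3 DKO samples lay above all 3 controls for 4 of the 10 (Alb, Afp, Apoa2 and Trf), against 8.36% of all genes. Since the list was chosen with this contrast in view, nothing is read from these counts. The place of Alb past the threshold was lost without control 1, 2 or 3, without DKO 1, and when the fit covered every probe set of the array. The median difference over the 10 genes was 0.13, and over all genes it was 0.00. The 8 genes other than Alb and Afp had differences between -0.08 and 0.18, with SEs of 0.06 to 0.10.

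Array DKO 2 carried the highest value of the 6 arrays for 6 of the 10 genes. The same array was the highest for 33.4% of all genes, and for 57.2% of 1015 olfactory receptor genes, which are not genes of the lung. It did not stand out in its median over all probe sets, which was 7.87 against 7.86 to 7.89 on the others. Without DKO 2 the median difference over the 10 genes was 0.07 and 8 of them stayed above 0, whereas with it 9 were above 0. Over all 19938 genes, 10002 were above 0 with DKO 2 and 8294 without it, and the median without it was -0.02. The part of this array in the small differences was not tested beyond that.

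The olfactory receptor genes also give a yardstick of dim signal, since 95% of them had a mean log2 expression of at most 7.01. This yardstick was chosen after the values were seen, and the brightness of a probe set depends on its sequence as well as on the RNA. By it, 6 of the 10 genes were brighter (Alb, Afp, Apoa1, Apoa2, Trf and Hnf4a) and 4 were not (Ttr, Apob, Ahsg and Fgb). For the latter, differences between the groups rest on signal no brighter than that of genes expected to be silent.

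The 3 apolipoprotein genes of the list differed little between the groups. Apoa1 encodes the main protein of high-density lipoprotein, and its log2 expression was 8.31, 8.10 and 8.14 in controls 1 to 3 and 8.23, 8.52 and 8.17 in DKO 1 to 3. These groups overlapped, and the log2 difference of 0.12 (SE 0.10) fell to 0.01 without DKO 2. Apoa2, which encodes its partner on the same particles, was at 8.04, 8.05 and 7.90 in controls and 8.08, 8.29 and 8.08 in DKO. Its groups were separated by 0.032, and the difference was 0.15 (SE 0.07), or 0.08 without DKO 2. Apob, the structural protein of low-density lipoprotein, was at 6.46, 6.58 and 6.42 in controls and 6.58, 6.73 and 6.58 in DKO. Its groups met at control 2 and DKO 1, with a difference of 0.15 (SE 0.07), or 0.10 without DKO 2.

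The carrier genes Trf and Ttr and the genes Ahsg and Fgb differed by less than 0.2 on the log2 scale. Trf encodes transferrin, the iron carrier of plasma, and stood at 8.66, 8.75 and 8.74 in controls 1 to 3 and at 8.83, 8.88 and 8.96 in DKO 1 to 3. Its groups did not overlap. The difference was 0.18 (SE 0.06, 1.13-fold) and was as large without DKO 2, at 0.18. Ttr encodes transthyretin, which carries thyroid hormone and retinol-binding protein, and stood at 6.54, 6.60 and 6.56 in controls and 6.63, 6.75 and 6.57 in DKO, a difference of 0.08 (SE 0.06) with overlapping groups. Without DKO 2 this was 0.03.

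Ahsg, the gene of the mineral-binding glycoprotein fetuin-A, was at 6.25, 6.18 and 6.34 in controls and at 6.29, 6.44 and 6.13 in DKO. Its difference of 0.03 (SE 0.08) changed sign without DKO 2, to -0.05. Fgb, the gene of the fibrinogen beta chain, was at 6.55, 6.89 and 6.59 in controls and at 6.79, 6.88 and 6.70 in DKO, a difference of 0.11 (SE 0.09), or 0.07 without DKO 2. In both genes the groups overlapped, and for Fgb control 2 was the highest of the 6 arrays. The 95% confidence intervals of the differences ran from -0.16 to 0.22 for Ahsg and from -0.10 to 0.32 for Fgb. True differences within those bounds would be compatible with these values from 3 arrays per group.

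Hnf4a was the 1 gene of the list with a lower mean in DKO. Its log2 expression was 7.48, 7.70 and 7.44 in controls 1 to 3 and 7.32, 7.66 and 7.40 in DKO 1 to 3. The second replicate was the highest in each group and the groups overlapped. The difference was -0.08 (SE 0.10, 95% confidence interval -0.31 to 0.14), and -0.19 without DKO 2.

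The genes beside Alb and Afp on the chromosome were read as well. Afm, the third gene of the albumin family and the next gene after Afp, encodes the vitamin E carrier afamin and stood at 5.44, 5.43 and 5.69 in controls 1 to 3 and 5.43, 5.55 and 5.41 in DKO 1 to 3. The log2 difference was -0.06 (SE 0.08, limma adjusted p = 0.850), with overlapping groups, in signal dimmer than the olfactory receptor yardstick. It changed sign without control 3 (0.03). The 5 measured genes on each side of the pair make 10 genes, with a median difference of 0.00. Of these 10, 1 rose and 0 fell, against 1.03% and 1.38% of all genes. The gene that rose was Ppbp, which encodes a chemokine of platelets. Ppbp was at 10.67, 10.81 and 10.84 in controls and 11.21, 11.39 and 11.42 in DKO, a difference of 0.57 (SE 0.07, adjusted p = 0.00513) or 1.48-fold. Without DKO 2 the gene Cox18 passed as well, downward, while the falls over all genes went from 275 to 426. Of the next 5 genes past this window, named here after their values were seen, the platelet chemokine gene Pf4 (0.38, SE 0.06, adjusted p = 0.0078) and the lung chemokine gene Cxcl15 (1.19, SE 0.08, adjusted p = 0.000179) rose. The chemokine genes Cxcl3 (-0.04, adjusted p = 0.856), Cxcl1 (-0.01, adjusted p = 0.97) and Cxcl2 (-0.03, adjusted p = 0.953) did not pass.

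**Figure D2:**
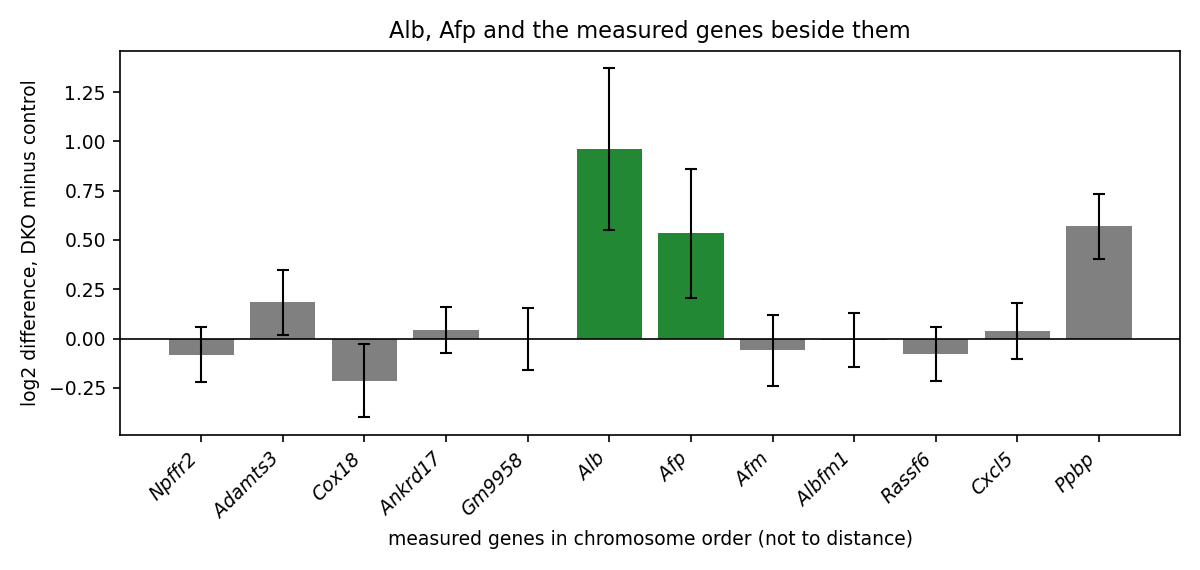
Log2 difference (DKO minus control, vertical axis) of Alb and Afp (green) and the 5 measured genes on each side of the pair (grey), in chromosome order, with bars for the limma 95% confidence interval (n = 3 per group). Between Gm9958 and Cxcl5 the differences other than those of Alb and Afp lie between -0.08 and 0.04, and Ppbp at the right edge stands at 0.57.

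Other genes of the hepatocyte were counted in the same way. Over 4 lists of further apolipoproteins, clotting proteins, other plasma proteins and hepatocyte enzymes and transporters, 71 of 78 genes were measured. Of these, 1 rose and 2 fell, against 1.03% and 1.38% of all genes, and their median difference was 0.03. Without DKO 2 the same 3 genes passed and the median was -0.02, and 385 of all 19938 genes rose and 426 fell. Signal did not exceed the olfactory receptor yardstick for 48 of the 71, and DKO 2 was the highest array for 56.3% of them.

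The gene that rose was Serpina6, which encodes the corticosteroid carrier of plasma. It was at 5.76, 5.98 and 5.95 in controls 1 to 3 and at 6.49, 6.65 and 6.40 in DKO 1 to 3. The groups were separate, and the difference was 0.62 (SE 0.08, adjusted p = 0.00558) or 1.53-fold, in dim signal. Itih2, which encodes a heavy chain that binds hyaluronan, fell. It was at 7.63, 7.90 and 7.72 in controls and 7.13, 7.09 and 6.94 in DKO, a difference of -0.70 (SE 0.08, adjusted p = 0.00276), 1.62-fold lower. Both calls held whichever array was left out. Tdo2, a tryptophan-degrading enzyme of liver, fell by 0.34 (SE 0.07, adjusted p = 0.0445) in dim signal, and this call was lost without control 1, 2 or 3, DKO 1 or DKO 3.

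Among the 10 further apolipoprotein and lipoprotein genes, limma called 0, with 2 at an unadjusted p under 0.05 and a median difference of 0.04. Over all 19938 genes limma called 2.41%, and 2559 genes had an unadjusted p under 0.05. The largest differences there were those of Apoe, a lipoprotein ligand also made by macrophages (0.19, adjusted p = 0.166), the cholesterol esterifying enzyme gene Lcat (-0.19, adjusted p = 0.295) and Apoc1 (0.12, adjusted p = 0.433). The genes that form a cluster with Apoa1 were not past the threshold, with differences of 0.08 for Apoa4, -0.09 for Apoa5 and 0.03 for Apoc3. Among 18 clotting genes limma called 0, with 1 at an unadjusted p under 0.05 and a median of 0.05. The partners of Fgb in fibrinogen, Fga (0.05) and Fgg (0.12), were not past the threshold, and the largest differences were those of the clotting factor genes F12 (0.18, adjusted p = 0.456) and F11 (-0.16, adjusted p = 0.3) and of the plasmin inhibitor gene Serpinf2 (0.14, adjusted p = 0.431). With array weights, limma called 1 apolipoprotein gene and 2 clotting genes. The same setting called 2003 of all 19938 genes, against 481 in the main fit, so nothing is read from these counts.

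**Figure D3:**
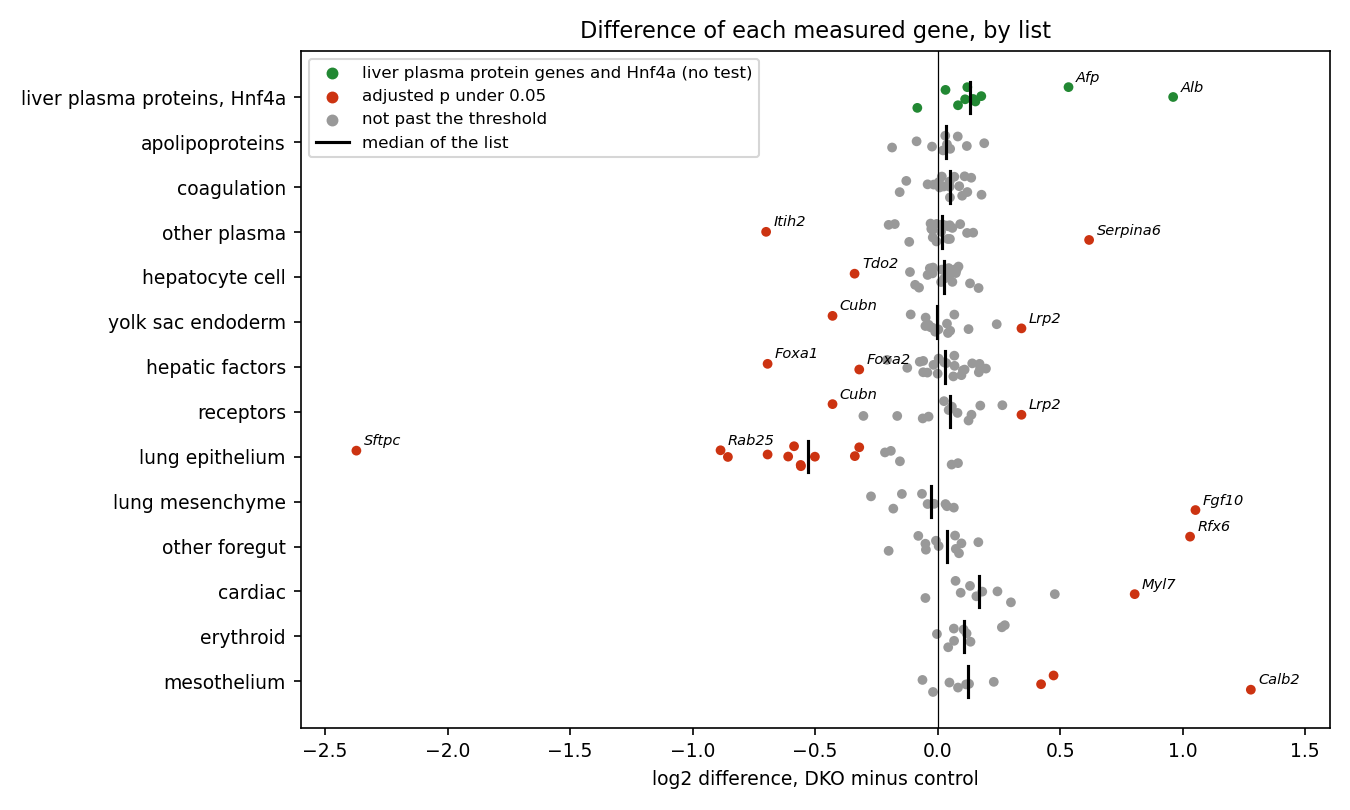
Log2 difference (DKO minus control, horizontal axis) of each measured gene by list, with red points past an adjusted p of 0.05 in limma, grey points not past it, green points for the 10 genes of the list (9 plasma protein genes and Hnf4a), and a black bar at each median. The liver lists centre close to 0, and the lung epithelium list lies to the left, with a median of -0.53.

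The median difference over 24 measured transcription factors that control liver and endoderm genes was 0.03. Of these factors 0 rose and 2 fell, against 1.03% and 1.38% of all genes. The 2 that fell were the pioneer factors Foxa1 (-0.69, SE 0.07, adjusted p = 0.00184, 1.62-fold lower) and Foxa2 (-0.32, SE 0.06, adjusted p = 0.0274, 1.25-fold lower), both also markers of the lung epithelium. The Foxa1 values were 10.54, 10.59 and 10.59 in controls and 9.72, 9.99 and 9.93 in DKO, so they moved opposite to Alb and did not overlap. The call for Foxa2 was lost without control 1, 2 or 3 or DKO 1.

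Of 14 measured receptors for these proteins, 1 rose and 1 fell, against 1.03% and 1.38% of all genes, with a median of 0.05, and the same genes were the 2 calls among 16 measured genes of the visceral and yolk sac endoderm, where the median was 0.00. Cubn encodes cubilin, which takes up albumin, Apoa1 and transferrin at the apical membrane. It was at 7.57, 7.62 and 7.72 in controls 1 to 3 and 7.20, 7.24 and 7.19 in DKO 1 to 3, a difference of -0.43 (SE 0.06, adjusted p = 0.00558) or 1.35-fold lower. Lrp2 encodes megalin, the co-receptor of cubilin, and was at 7.72, 7.76 and 7.76 in controls and 8.05, 8.11 and 8.12 in DKO, a difference of 0.34 (SE 0.05, adjusted p = 0.0079) or 1.27-fold. The values of each gene were separate between the groups, and the partners thus moved apart. The Lrp2 call was lost without control 1. The retinol receptor gene Stra6 passed as well without DKO 2, downward, while the falls over all genes went from 275 to 426.

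Markers of the labelled tissue were bright. All 16 lung epithelium markers and all 10 lung mesenchyme markers exceeded the olfactory receptor yardstick in their mean over the arrays. Of the epithelial markers 11 fell and 0 rose, against 1.38% and 1.03% of all genes, with a median of -0.53. The largest fall was that of the surfactant gene Sftpc (-2.37, SE 0.18, adjusted p = 0.000354), followed by Rab25 (-0.89, SE 0.06, adjusted p = 0.000293) and the keratin gene Krt18 (-0.86, SE 0.05, adjusted p = 0.000135). Not past the threshold were Nkx2-1 (-0.19), Cdh1 (-0.215), Sox9 (-0.15), Krt19 (0.08) and Id2 (0.06). The count of epithelial markers past it was 7 without control 2, when 197 of all genes passed. Of the mesenchymal markers 1 rose, against 1.03% of all genes, namely Fgf10 (1.05, SE 0.12, adjusted p = 0.00236). The median of the mesenchymal list was -0.03, and 4 of the 10 were above 0. Its lowest difference was that of Wnt2 (-0.27), not past the threshold, with all DKO values below the controls. Of the targeted genes, Hdac1 fell by 0.28 (SE 0.05, adjusted p = 0.0193), a call that was lost on leaving out any array but DKO 2, and Hdac2 stood at -0.04 (SE 0.06, adjusted p = 0.845). Whether these probe sets lie in the floxed exons was not determined here.

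Markers of tissues near the lung bud, which a dissection could carry along, were read beside Alb. Over 21 hepatocyte genes that are not secreted, the mean log2 expression per array was 6.62 to 6.66 in controls and 6.58 to 6.74 in DKO, and 3 of the 21 exceeded the olfactory receptor yardstick. The fetal liver gene Fabp1 (difference 0.01) was not among those 3, and the only call there was the fall of Tdo2. Differences in this list ran from -0.34 for Tdo2 to 0.17 for Dlk1, which was not past the threshold and whose groups overlapped. The median was 0.03, and 13 of the 21 were above 0, against 10002 of all 19938 genes. Over 9 erythroid genes, which the fetal liver also contains, the mean was 10.03 to 10.20 in controls and 10.15 to 10.28 in DKO. For these limma called 0, with 2 at an unadjusted p under 0.05, against 2559 of all 19938 genes. The 2 were Gata1 (0.27, adjusted p = 0.0665) and the embryonic globin gene Hbb-bh1 (0.26, adjusted p = 0.112), and Klf1 stood at 0.13 (adjusted p = 0.508). Without DKO 2, Hbb-bh1 passed, while the rises over all genes went from 206 to 385.

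Some cardiac and mesothelial genes rose. Of 10 cardiac genes 1 rose, against 1.03% of all genes. It was Myl7, the atrial myosin light chain (0.80, SE 0.08, adjusted p = 0.00163). Without DKO 2 there were 3, while the rises over all 19938 genes went from 206 to 385. The mean over the cardiac list was 8.18 to 8.25 in controls and 8.41 to 8.53 in DKO. Of 10 mesothelial genes, from the layer that covers lung and liver alike, 3 rose, against 1.03% of all genes. They were the calretinin gene Calb2 (1.28, SE 0.23, adjusted p = 0.0221), the uroplakin gene Upk1b (0.47, adjusted p = 0.00904) and the neuronal membrane glycoprotein gene Gpm6a (0.42, adjusted p = 0.026). Not past the threshold were Wt1 (-0.02), Aldh1a2 (-0.06), Msln (0.05), Krt19 (0.08), Upk3b (0.12), Podxl (0.13) and Lrrn4 (0.23). The median difference of the list was 0.12. Upk1b kept its call whichever control was left out, and the calls of Calb2 and Gpm6a were lost with each of them left out, that of Gpm6a also without DKO 3. The mesothelial mean was 9.03 to 9.05 in controls and 9.26 to 9.36 in DKO. Of 12 markers of stomach, pancreas, intestine and thyroid 1 rose, against 1.03% of all genes. It was the endocrine factor gene Rfx6 (log2 difference 1.03, SE 0.15, adjusted p = 0.00813), a call lost without control 2. The part of such tissues in the Alb difference was not tested.

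The 8 genes whose profile over the 6 arrays lay nearest to that of Alb were Gas6, Dram1, Sftpa1, Reg4, Nup62cl, Galnt14, Serpina6 and Calcrl. Nearness is the root mean square difference of log2 values centred on each gene's own mean, and it was 0.174 for Gas6 and 0.258 for Calcrl. Serpina6 is the 1 gene among them from the plasma protein lists. Gas6, a ligand of TAM receptors, was at 7.98, 8.16 and 8.07 in controls 1 to 3 and 9.17, 9.31 and 8.95 in DKO 1 to 3. For Sftpa1, which encodes surfactant protein A, the values were 8.09, 8.22 and 8.12 in controls and 9.16, 9.15 and 8.61 in DKO. Reg4, a secreted lectin gene of the gut, was at 5.69, 5.99 and 5.77 in controls and 6.63, 6.70 and 6.49 in DKO. Its mean of 6.21 did not exceed the olfactory receptor yardstick, nor did that of Serpina6.

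In all 8 genes the DKO values lay above the controls, which choosing profiles near that of Alb favours. Their differences ran from 0.62 for Serpina6 to 1.08 for Gas6. For Sftpa1 the limma call was lost without control 1, 2 or 3, and for Galnt14, a glycosyltransferase gene, on leaving out a control or DKO 1. By the same measure Afp ranked 28 of all genes (0.313). The other genes of the list ranked 552 (Apoa2, 0.449), 712 (Apob), 998 (Apoa1), 1013 (Fgb), 1385 (Trf), 1937 (Ttr), 4205 (Ahsg) and 10219 (Hnf4a, 0.546) of the 19938 genes. The measure includes the difference between the groups and is a description over 6 arrays.

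**Figure D4:**
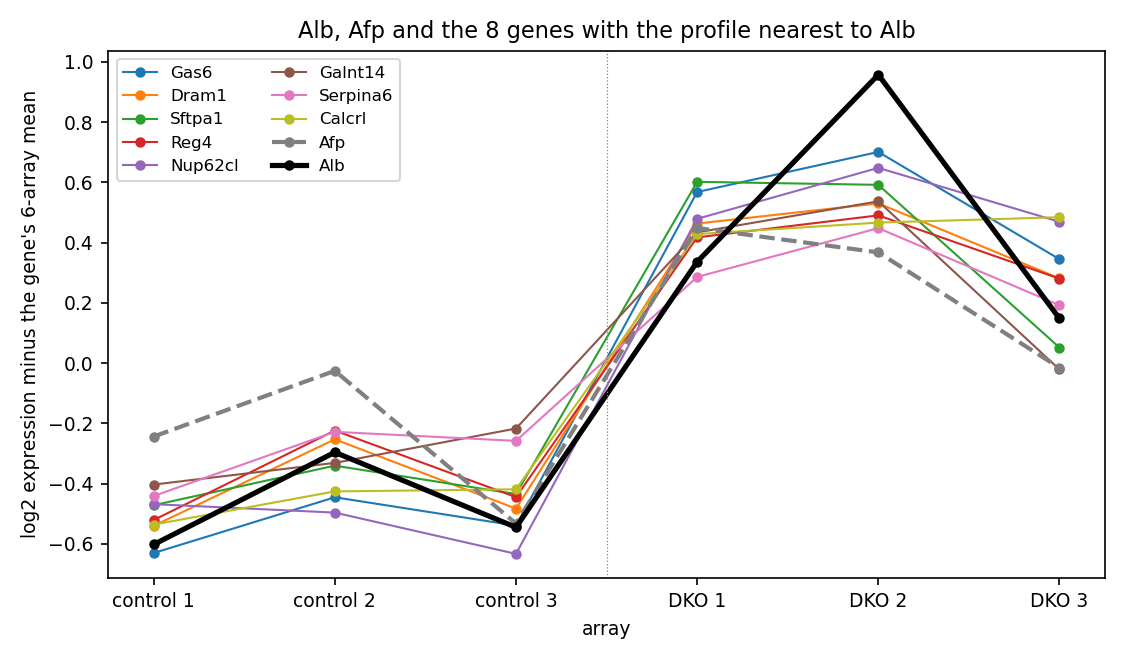
Log2 expression minus the gene's mean over the 6 arrays (vertical axis) on each array (horizontal axis) for Alb (black), Afp (dashed) and the 8 genes nearest to Alb in profile; lines only join the points of 1 gene. On DKO 2 Alb stands above each of the others, and on DKO 3 Afp and Galnt14 lie close to 0 while Alb lies above it.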

How the data were processed

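Labelled cRNA from 100 ng of total RNA per sample was hybridised to Affymetrix MoGene 1.1 ST arrays, per the labels. The deposited values are log2 expression, 1 per probe set and array, for 35556 probe sets on 6 arrays. Per the submitters' processing notes the tools were oligo, RMA and limma (versions and settings are not given in the sources used here). The log base was taken from RMA's usual output and the range of the values. The arrays were used as deposited, so a change of total RNA common to all genes cannot be seen, and their number limits the precision. The platform annotation gave 1 gene for 21789 probe sets, several for 1621 and none used here for 12146. Names were checked by Entrez identifier against RefSeq (GRCm38.p6), which left 82 genes with their platform name.

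Differences were fitted in R 4.3.3 by limma 3.58.1, using lmFit with group as the single term and then eBayes at its defaults, two-sided, on 19938 genes, with Benjamini-Hochberg adjustment over all of them and a threshold of 0.05. The fit was tested on simulated data. The genes of the list, the other 14 gene lists and the tests were chosen with earlier results of these data known. Named genes were the 10 genes, Hdac1 and Hdac2, up to 4 genes past the threshold from each list or the 3 with the largest change where none passed, lists of up to 4 genes in full, and the 8 genes nearest to Alb in profile, without clone and predicted names, vomeronasal and olfactory receptors, and Y or X inactivation genes. Genes outside this rule, such as Ppbp, complete a small count. Replicate numbers are shared between the groups, but same-numbered samples did not deviate together (correlations of deviations from the group means of -0.064, 0.046 and 0.156), so they were not treated as pairs. Promoters were taken from RefSeq (build GRCm38.p6), and those of 8 of the 10 genes were used here. A planned comparison of protein sequences was not made, and 1 planned motif is not reported here. Alternatives were the replicate block, an intensity trend, array weights, a second quantile normalization, a filter on the dimmest 30% of genes, the mean of all probe sets of a gene, a fit over all probe sets and leaving out each array.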

Additional observations from a re-analysis of the deposited data

How the results depend on the processing

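The differences of the 10 genes moved by less than the larger of the 2 groups' SDs in all 126 values computed under the alternatives. The replicate block, intensity trend, filter on dim genes, mean of probe sets and fit over all probe sets could not move these differences. Each of the 10 genes had 1 probe set and each replicate number stood in both groups, so these alternatives changed only the p-values. The values under them are among the 126. For Ahsg the move to -0.10 with array weights exceeded the control SD of 0.083 but not the DKO SD of 0.157. Alb ran from 0.71 to 1.13 and Afp from 0.34 to 0.68, and Ahsg alone took both signs (-0.10 to 0.11). For 36 further named genes, 412 of 463 values kept direction and side of the threshold, 43 lost the call, 7 gained it and 1 reversed, Afm without control 3 (0.025, with a range of -0.107 to 0.025 over the arrays left out). The cause of the changes was not tested, except that leaving out an array leaves fewer samples and the fit over all probe sets adjusts over more features.

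Counts past the threshold moved as follows. All genes: 481 became 148 with all probe sets fitted, 2003 with array weights and 725 with an intensity trend, and 197 to 811 when 1 array was left out. With all probe sets fitted, the counts were 0 for the 10 genes, the albumin family, the hepatocyte, foregut and mesothelial lists, 1 for the liver factors and 7 for lung epithelium. With array weights they were 2 for the 10 genes (Alb and Trf), 1 for apolipoproteins, 2 for clotting, hepatocyte, mesenchymal and erythroid genes and for the neighbours of Alb, 4 for liver factors, 6 for receptors and 5 for cardiac genes. With an intensity trend they were 4 for receptors, 2 for mesenchymal and cardiac genes and 1 for erythroid genes. Without the dimmest 30% of genes they were 1 for other plasma proteins and for erythroid genes, 0 for hepatocyte genes and 4 for receptors. With the replicate block they were 2 for the 10 genes and for the albumin family (Alb and Afp), 0 for hepatocyte genes and 1 for liver factors, and 406 for all genes.

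With 1 array left out, the count ranged from 0 to 1 for the 10 genes, the albumin family, hepatocyte, foregut and erythroid genes, from 1 to 2 for liver factors and the neighbours of Alb, from 1 to 3 for yolk sac endoderm, receptors and cardiac genes, from 1 to 4 for mesothelium and from 7 to 11 for lung epithelium. A promoter window of 100 bases left 7 of 8 genes with letters of HNF4, FOXA or C/EBP, the count of the whole window. HNF4 letters matched 0 of the 8 in either window, and the share of all promoters for this joint count was not computed. FOXA alone went from 6 to 4 (without Alb and Apob), against 2.71% of all promoters in the short window. C/EBP went from 6 to 5 (without Apoa2), against 3.43%. CCAAT went from 5 to 2, against 18.9%, and TATAAA from 3 to 2, against 5.56%.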
